A study of Mus musculus with 6 samples.

Results

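The 300 least promoter-paused genes of medium length were examined by PRO-seq in mouse bone marrow progenitors. PRO-seq maps RNA polymerase while it transcribes, since nascent RNA is tagged with biotin in a short nuclear run-on and only tagged RNA is sequenced. A transcript was read in a head window of 330 bp, which begins 30 bp before its 5′ end, and in the rest of the transcript, called the body. The pausing ratio is head reads per base divided by body reads per base, here from the sum of 6 libraries. Genes were eligible with a body of 10000 to 100000 bp, at least 120 head reads and at least 300 body reads, and where a gene had several transcript rows, that with the most body reads on average stood for it. This left 1562 of the 2744 genes of the deposited table, and the 300 with the lowest ratio, 19.2% of the eligible genes, are described here. The ratio itself is therefore a description of how the genes were chosen, and it carries no test.

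The cells were cKIT+ bone marrow cells of female C57/BL6 mice of the genotype Mllt3 flox/flox Rosa26Cre+, whose age is not given in the sources used here. They were transduced with wild-type MLLT3 (the group WT) or with MLLT3 K63E K67E (the double mutant, DM), 3 libraries each, and grown for 8 days in methylcellulose with a mixture of cytokines and 200 nM 4-hydroxytamoxifen. Both groups carry the tamoxifen-driven deletion of their own Mllt3, so WT is a culture with introduced wild-type protein and not unmodified marrow. Nothing in the labels says that the 3 libraries of a group came from separate animals or cultures, so p-values measure the spread between these libraries, which may be technical. MLLT3 (AF9) reads chromatin through its YEATS domain, and the study asks what that domain binds, among histone marks and a noncoding RNA of the elongation machinery.

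At many mammalian genes, RNA polymerase II initiates and then halts shortly downstream of the start site until the kinase P-TEFb releases it into the body. A gene with a low pausing ratio has little polymerase near its start for the amount found in its body. MLLT3 takes part in complexes that bring P-TEFb to chromatin. Promoters in CpG islands, which are rich in CG dinucleotides, serve most broadly expressed genes, while promoters poor in CG are commoner among genes of restricted expression.

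Promoter sequence is shown for the 6 lowest-ranked members whose deposited 5′ end lies near a RefSeq start, for 6 members with the largest head changes or the smallest ratio p-values, and for a pair of the most paused eligible genes as a contrast, because the dinucleotide CG turned out to differ between these sets. Each line is the sense strand, 5′ to 3′, from 100 bases before to 20 bases after a RefSeq start (GRCm38.p6), with every CG in capitals. Members of low pausing ratio come first.
Tal1 (chr4:115056326-115056445, plus strand): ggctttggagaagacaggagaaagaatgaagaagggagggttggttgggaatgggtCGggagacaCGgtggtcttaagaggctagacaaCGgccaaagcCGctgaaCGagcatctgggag
Lcp1 (chr14:75131023-75131142, plus strand): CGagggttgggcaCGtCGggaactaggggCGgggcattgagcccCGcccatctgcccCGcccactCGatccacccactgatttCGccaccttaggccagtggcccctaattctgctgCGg
1600014C10Rik (chr7:38183117-38183236, plus strand): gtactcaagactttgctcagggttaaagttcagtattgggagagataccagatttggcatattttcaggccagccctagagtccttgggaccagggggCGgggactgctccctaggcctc
Inhba (chr13:16011751-16011870, plus strand): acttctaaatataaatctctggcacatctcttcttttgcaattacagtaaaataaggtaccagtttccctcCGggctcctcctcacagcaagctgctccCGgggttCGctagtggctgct
Apobec3 (chr15:79892308-79892427, plus strand): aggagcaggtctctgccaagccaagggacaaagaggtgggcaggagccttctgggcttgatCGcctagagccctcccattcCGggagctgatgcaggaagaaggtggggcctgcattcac
Tnip1 (chr11:54962921-54963040, minus strand): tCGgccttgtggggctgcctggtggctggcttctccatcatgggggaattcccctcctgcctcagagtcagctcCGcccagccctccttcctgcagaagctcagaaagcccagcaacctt
Members named for their heads or ratios follow.
Il1a (chr2:129309953-129310072, minus strand): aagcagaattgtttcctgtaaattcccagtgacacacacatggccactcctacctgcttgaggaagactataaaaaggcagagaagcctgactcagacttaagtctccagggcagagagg
Pdpn (chr4:143299545-143299664, minus strand): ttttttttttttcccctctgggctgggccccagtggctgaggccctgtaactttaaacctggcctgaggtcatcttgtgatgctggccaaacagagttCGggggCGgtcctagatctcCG
Cd34 (chr1:194938721-194938840, plus strand): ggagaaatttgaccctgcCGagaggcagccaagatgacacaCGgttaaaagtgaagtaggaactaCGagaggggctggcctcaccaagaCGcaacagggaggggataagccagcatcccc
Pik3ip1 (chr11:3330631-3330750, plus strand): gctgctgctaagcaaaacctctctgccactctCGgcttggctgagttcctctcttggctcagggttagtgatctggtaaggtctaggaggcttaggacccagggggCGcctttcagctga
Fgd2 (chr17:29360814-29360933, plus strand): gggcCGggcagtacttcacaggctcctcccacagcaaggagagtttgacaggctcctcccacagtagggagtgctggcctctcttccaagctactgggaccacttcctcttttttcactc
Nek6 (chr2:38511597-38511716, plus strand): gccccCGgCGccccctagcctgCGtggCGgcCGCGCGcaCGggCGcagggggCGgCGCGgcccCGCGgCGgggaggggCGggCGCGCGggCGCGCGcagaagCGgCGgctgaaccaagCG
Of the most paused genes, the following pair is shown.
Snx7 (chr3:117868917-117869036, minus strand): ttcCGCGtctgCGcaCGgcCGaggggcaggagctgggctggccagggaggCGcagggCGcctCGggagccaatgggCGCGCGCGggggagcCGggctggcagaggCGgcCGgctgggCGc
Acer2 (chr4:86874314-86874433, plus strand): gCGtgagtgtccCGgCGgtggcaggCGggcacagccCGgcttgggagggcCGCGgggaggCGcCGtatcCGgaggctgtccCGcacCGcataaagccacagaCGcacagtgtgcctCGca
The 120 bases of Il1a hold no CG, those of 1600014C10Rik and Fgd2 hold 1 each, and those of Apobec3, Tnip1 and Pik3ip1 hold 2 each. Inhba and Pdpn have 3 each, Cd34 has 4, Tal1 has 5 and Lcp1 has 9. Nek6 has 25, and the paused genes Snx7 and Acer2 have 16 and 14. These lines were chosen by rank and change and do not stand for all members. Of members ranked among the 10 lowest, Srgn and Capg have a 5′ end 340 bp and 5256 bp from the nearest RefSeq start, Vwa5a has no entry, and Gata2, with a CG ratio (defined below) of 0.90, is not printed. Among motifs searched on both strands, TATAAA begins 32 bases before the start of Il1a and 91 bases before that of Inhba, and GGGCGG occurs in Lcp1, 1600014C10Rik, Tnip1, Pdpn and Nek6.

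The members' pausing ratios ran from 0.371 to 7.46 with a median of 5.00, against a median of 23.8 in the other 1262 eligible genes. On the rows used, only 3 members were below 1, where the body holds more polymerase per base than the head. They were Tal1 at 0.371, a transcription factor of blood stem and erythroid cells, Srgn at 0.458, the granule proteoglycan serglycin, and Capg at 0.961, an actin-capping protein. A further 21 members lay between 1 and 2, 73 between 2 and 4, 119 between 4 and 6, and 84 above 6. Vwa5a followed at 1.25, Lcp1 (L-plastin, which bundles actin) at 1.25, 1600014C10Rik at 1.29, Inhba (an activin subunit) at 1.30, Apobec3 (a cytidine deaminase that restricts retroviruses) at 1.33, Tnip1 (an inhibitor of NF-kB signalling) at 1.43 and Gata2 (a transcription factor of progenitors and mast cells) at 1.44. At the cut-off, Npepps, Ctsb and Frmd4b were just inside at 7.44, 7.44 and 7.46, and Bst1, Nckap5l and Chek2 just outside at 7.48, 7.50 and 7.52, so the boundary is a point on a smooth curve.

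**Figure D1:**
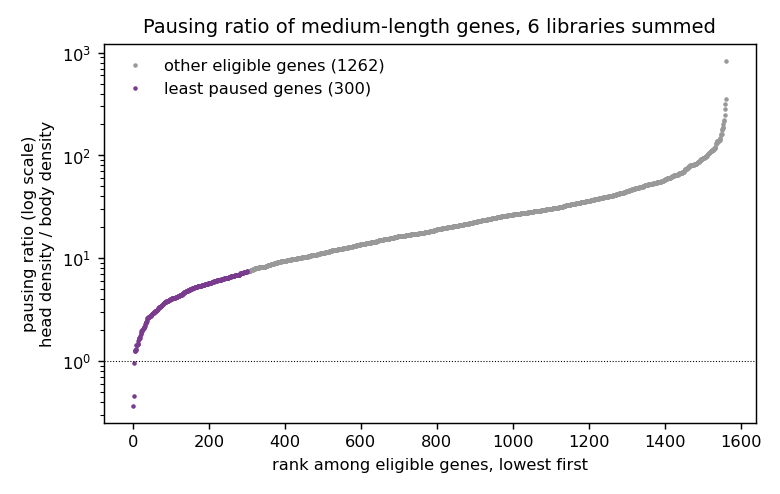
Pausing ratio (vertical axis, log scale) of the 1562 eligible genes against their rank (horizontal axis), with the 300 least paused genes in purple, the other 1262 in grey and a dotted line at a ratio of 1. The members run from 0.371 to 7.46 and join the other genes without a step.

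The low ratios went with both a fuller body and a thinner head. Median body RPKM, reads per kilobase of window and per 1000000 reads of the library total, was 2.64 in members and 1.04 in the other eligible genes, and median head RPKM was 11.8 against 26.7. Members were also shorter, with a median body of 21459 bp against 35522 bp. Of the eligible genes with a body under 20 kb, 32.5% were members, against 21.1% at 20 to 40 kb and 8.15% at 40 to 100 kb. Since body and head counts entered the rule, these are descriptions. A member had a median of 475 head reads over the 6 libraries, and the other eligible genes 1068, so single heads are measured less precisely here than elsewhere.

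The choice rested little on any library. Chosen from the WT libraries alone, 262 of the 300 were the same genes, and from the DM libraries alone 271 were. Leaving out each library in turn kept from 290 to 295. Of the 300, 299 were below the eligible median of 18.3 in every library. These counts reuse the libraries on which the members were chosen, so they describe the choice and are not independent support for it. Doubling the count minimums kept 236, and representing each gene by the row with the highest head count kept 278.

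Summed over the members, WT replicates 1 to 3 had 5.20, 7.22 and 6.33 head reads per 100 body reads, while the DM libraries, in the same order, stood at 5.04, 5.87 and 5.66. The groups overlapped, at 6.25 ± 1.01 in WT against 5.52 ± 0.434 in DM (SD, n = 3 each). WT replicate 2, which also has the smallest library total (15112853 reads, where the largest is 22981603), stood highest, and it stood much further out among more paused genes. In the other eligible genes it had 36.1 where the remaining libraries had 18.4 to 22.2, and in the 300 most paused it had 87.4 where they had 39.9 to 49.1. As a multiple of the mean of WT replicates 1 and 3 it was at 1.25 in the members, 1.72 in the other eligible genes and 1.92 in the most paused. It was the library of highest pausing ratio for 47.7% of members and for 78.7% of the other eligible genes. Counts of head and ratio calls are given below with and without this library.

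**Figure D2:**
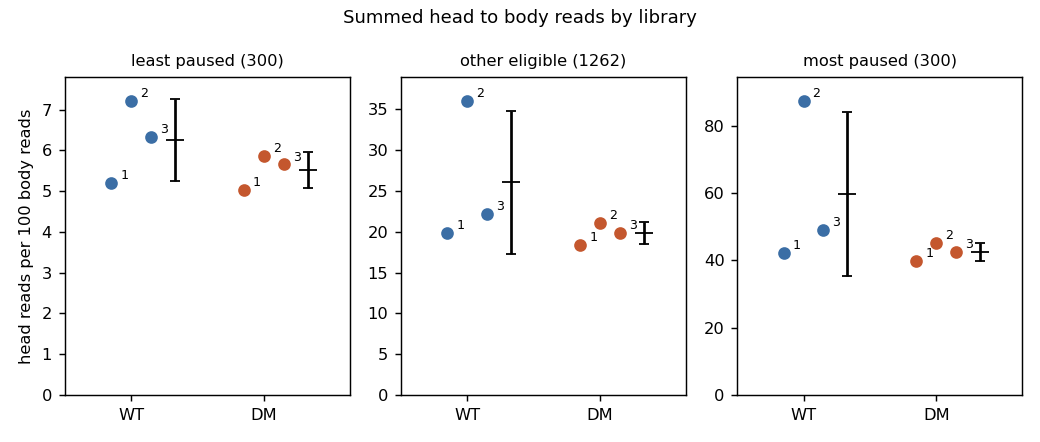
Head reads per 100 body reads in each library (numbered points; vertical axes start at 0 and differ between panels), summed over the 300 least paused genes, the other 1262 eligible genes and the 300 most paused, with mean and SD of the 3 libraries beside each group. WT replicate 2 is highest in each panel, at 7.22, 36.1 and 87.4.

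Promoters of the members were poorer in CG than those of other eligible genes, a feature the rule did not use. RefSeq promoter sequence (250 bases before to 50 after a start) was matched by symbol and strand to 239 of the 300 members, and for 173 of them the deposited 5′ end lay within 100 bp of a RefSeq start. Among these 173, the ratio of observed to expected CG dinucleotides had a median of 0.60, against 0.80 in 856 other eligible genes, 0.84 in 218 of the most paused and 0.38 over all 32851 promoters of the reference table. The ratio was under 0.4 in 63 of the 173, or 36.4% (95% exact Clopper-Pearson interval 29.2% to 44.1%), against 7.94% of the other eligible genes and 2.75% of the most paused. The interval treats promoters as independent draws, while these genes were chosen by rank, so it is no test between the sets. Members were not uniform in this, since 50.3% of them had a ratio of 0.6 or more, Nek6 at 0.95 among them. The share was larger in the 150 lowest-ranked genes, at 44.3%. Choosing the 300 lowest only among genes with a near RefSeq start gave 28.7%, against 6.17% of the rest. Read the other way, 48.1% of eligible genes with a ratio under 0.4 were members, 18.4% of those between 0.4 and 0.6, and 11.3% of those at 0.6 or more.

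**Figure D3:**
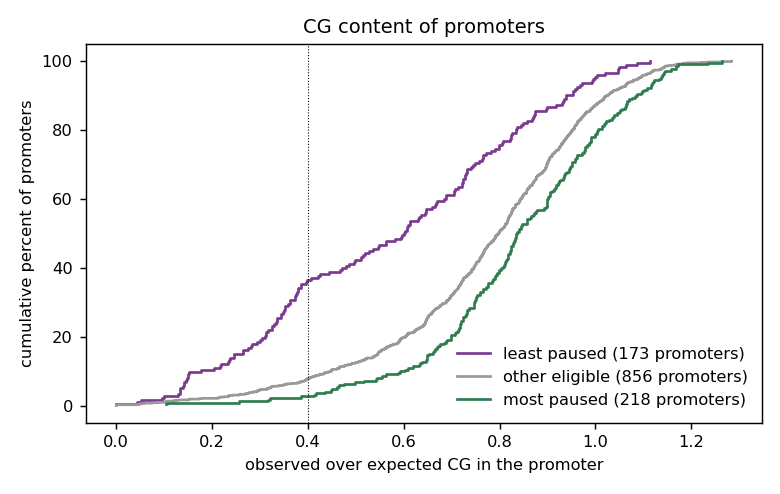
Cumulative percent of promoters (vertical axis) by the ratio of observed to expected CG dinucleotides (horizontal axis) for 173 least paused, 856 other eligible and 218 most paused genes, where the most paused are part of the other eligible genes. At the dotted line of 0.4 the curves stand at 36.4%, 7.94% and 2.75%.

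Shares of short motifs were read in the same promoters, without a test. GGGCGG, the GC box, was in 61.3% of member promoters, 77.5% of other eligible promoters and 35.7% of all promoters of this length in the table. CCGGAAG, the core recognised by many ETS factors, was in 7.51%, 15.3% and 8.86%. GAGGAAGT, a form of the site of the myeloid ETS factor PU.1, went the other way, with 11.6% of members, 3.50% of other eligible promoters and 3.20% of all promoters, but it was in 7.59% of the 150 lowest-ranked genes. TATAAA was in 9.25%, 5.14% and 13.6%, and on the sense strand between 45 and 15 bases before the start, a position added after the data were seen, in 5 members (2.89%) and 8 other eligible genes (0.935%). CCAAT was in 33.5%, 37.6% and 37.4%. AGATAA, a site of the blood factors that Gata2 belongs to, was in 6.94%, 5.02% and 11.2%. TGTGGT, a RUNX site, was in 13.9%, 12.9% and 16.8%, and the E-box CACGTG in 9.83%, 11.9% and 7.15%. TGACGTCA, a CREB site, was in 1.16%, 2.92% and 1.79%, and the NRF1 palindrome in 0% of members, 2.10% of other eligible promoters and 0.971% of all promoters. The ZBTB33 palindrome was in 0%, 0.818% and 0.466%. A match says only that the letters are present.

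For some members the deposited row began at a start with little polymerase while another start of the same gene had more. Srgn and Capg, with 5′ ends 340 bp and 5256 bp upstream of the nearest RefSeq start, are to be read with this in mind. Of the matched members, 12.6% had a 5′ end more than 1000 bp from any RefSeq start, against 3.53% of the other eligible genes, and 21.3% against 11.2% had another RefSeq start of the same gene more than 1000 bp downstream, inside the body. The table holds several rows for 63 members, and for 20 of these another row had a pausing ratio above the cut-off. In all 20 that other row began downstream, by 367 to 59118 bp with a median of 1386 bp. The row kept is the one with most body reads, which favours the longest. Adipor2, an adiponectin receptor, had a ratio of 1.86 with 251 head reads on the row used and 24.0 with 3184 head reads on a row that begins 28789 bp downstream. Tnip1 had 1.43 on the row used and 11.6 on a row 6790 bp downstream, and Mia2, at 3.78, had 61.3 on a row 431 bp downstream. For these 20 genes the low ratio is that of the row used, and how far the other row differs varied. Its ratio ran from 7.61 in Bcl2l1, below the eligible median of 18.3, to 92.8 in Slc35f5. In Ppt2 (6.84 and 8.12) the other row even had fewer head reads, 498 against 545. Rows also differed without passing the cut-off. Tal1 had 0.371 with 259 head reads on the row used, and 2.58 with 1645 on a row that begins downstream. Gata2 (1.44 with 4708, and 2.84 with 8784) and Vwa5a (1.25 with 238, and 3.72 with 691) were alike. Lcp1 ran the other way (1.25 with 255, and 0.337 with 72), and Apobec3 hardly differed (1.33 and 1.32). A 5′ end inside another gene was no more frequent in members (0.685% on the same strand and 10.6% on the other) than in the rest (1.14% and 10.9%).

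Setting DM against WT asks how polymerase on these genes depends on the YEATS domain's altered residues. All 300 members passed the body test (edgeR quasi-likelihood, adjusted p under 0.05), 178 higher in DM and 122 lower. The deposited table holds only rows with an adjusted p under 0.05 in the authors' own body comparison, so nearly every gene passes, 57.4% of those tested as higher and 42.6% as lower, and the members' 59.3% and 40.7% are read only against that background. The median body log2 fold change was 0.42 in members and 0.37 over all genes tested. These depend on the scaling: with TMM computed on the table itself, 137 members were higher and 122 lower, and the median of all genes fell by 0.19. In bulk cultures, fewer cells of a type and less nascent RNA per cell cannot be told apart.

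The largest body increases in DM were those of Pmp22, Pdpn, Clec4n, Tgfbi and Lpl. Clec4n, the fungal receptor dectin-2, had body RPKM of 1.76, 1.16 and 1.74 in WT against 6.04, 5.41 and 5.29 in DM (1.82 ± 0.14 on the log2 scale, estimate ± SE; edgeR adjusted p = 8.55e-05). Tgfbi, a secreted matrix protein, had 1.47, 1.76 and 2.40 in WT against 6.83, 5.45 and 6.48 in DM, and Lpl, lipoprotein lipase, had 1.72, 2.20 and 2.61 against 7.62, 6.12 and 7.13. The naming rule took only genes whose groups do not overlap, here and among the heads named for size below. Pdpn (podoplanin) changed by log2 1.84 ± 0.11 and Pmp22, a myelin protein, by 1.99 ± 0.27, and Pmp22 is a low gene, at 0.144 to 0.270 RPKM in WT. Clec4n and Clec4a2 belong to a family of similar lectin genes, and how multiply mapped reads were treated is not given in the sources used here.

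At the other end stood Il4, the type 2 cytokine, with body RPKM of 3.86, 4.69 and 4.41 in WT against 2.25, 1.96 and 1.59 in DM (log2 fold change -1.19 ± 0.15, edgeR adjusted p = 0.0004). Igfbp5, an IGF-binding protein, had 4.07, 6.74 and 3.50 in WT against 2.64, 2.00 and 1.60 in DM. Car2, a carbonic anhydrase of erythroid cells, had 2.54, 2.25 and 1.36 against 0.796, 1.00 and 1.00. Akr1c12 and Akr1c13, neighbouring aldo-keto reductase genes of near-identical sequence, had log2 changes of -1.29 ± 0.20 and -1.19 ± 0.21, and reads may be divided between them.

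The authors' test selected genes by body and not by head, so the heads tested are those of genes whose bodies passed it. Of the 300 members, 71 passed the head test, 43 higher in DM (14.3%) and 28 lower (9.33%). The background over 2581 genes tested, drawn from the same selected genes, was 7.63% higher and 9.18% lower. In this fit the members' share was close to the background for heads that fell. For heads that rose it was above the background, with a smaller gap without WT replicate 2 (27.0% against 23.6%). With all 6 libraries, 57 rose and 102 fell of the 1262 other eligible genes, and 7 rose and 23 fell of the 300 most paused. The 100 lowest-ranked members held 33 of the calls, 20 higher and 13 lower, the next 100 held 18 and the last 100 held 20. The median head log2 fold change was -0.01 in members, -0.20 in other eligible genes and -0.15 over all genes tested. The members' median was 0.16 without WT replicate 2, where that of all genes was 0.12, it was -0.19 without WT replicate 1 and 0.09 with TMM scaling, so its sign is not settled. On size-factor-scaled counts the heads of 146 members (48.7%) did not overlap between groups, against 38.7% of all heads tested. None of these differences between sets was tested, since the members were chosen with results known.

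The number of head calls moved with the libraries used. Without WT replicate 2 they came to 81 higher and 47 lower, without WT replicate 1 to 44 and 60, and without WT replicate 3 to 26 and 9. Without DM replicate 1 they came to 2 and 0, without DM replicate 2 to 20 and 11, and without DM replicate 3 to 8 and 6. TMM scaling gave 77 and 50, and an adjusted p under 0.01 left 8 and 0. Without WT replicates 1 to 3, 14.7%, 27.0% and 8.67% of members were higher, beside 7.91%, 23.6% and 3.28% of all heads tested. Lower were 20.0%, 15.7% and 3.00%, beside 21.8%, 13.5% and 4.73%. Without DM replicates 1 to 3, 0.667%, 6.67% and 2.67% were higher, beside 0.114%, 2.53% and 1.02%. Lower were 0%, 3.67% and 2.00%, beside 0.114%, 3.59% and 1.32%. With TMM, 25.7% were higher and 16.7% lower, beside 19.2% and 19.0%. Of the 71 called heads, 69 lost their call without DM replicate 1, 57 without DM replicate 3 and 40 without DM replicate 2. Each of the 71 kept its direction in the TMM, library-total and DESeq2 fits and with each library left out.

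The heads that rose most were those of Clec4a2, P2ry6, Il1a, Pdpn and Adipor2. Clec4a2, a lectin receptor of myeloid cells, had 9, 6 and 11 head reads in WT against 46, 35 and 38 in DM (log2 change 2.11 ± 0.38; edgeR adjusted p = 0.00848; 0.0593 without DM replicate 1). P2ry6, a nucleotide receptor, had 13, 10 and 24 against 70, 54 and 60 (1.90 ± 0.35). Il1a, the cytokine interleukin-1 alpha whose promoter above holds no CG, had 21, 7 and 32 against 93, 56 and 79 (1.90 ± 0.37). Pdpn had 20, 11 and 15 against 68, 50 and 60 (1.88 ± 0.34), and Adipor2 had 12, 17 and 22 against 63, 63 and 74 at its upstream start (1.87 ± 0.37). Bodies rose as well in all 5, by log2 1.50 in Clec4a2, 1.52 in P2ry6, 1.43 in Il1a, 1.84 in Pdpn and 0.88 in Adipor2.

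The heads that fell most included that of Cd34, the sialomucin that marks stem and progenitor cells. It had 66, 71 and 149 head reads in WT against 25, 37 and 33 in DM (log2 change -1.65 ± 0.36; edgeR adjusted p = 0.011; 0.0794 without DM replicate 1). Pik3ip1, an inhibitor of PI3-kinase, had 74, 50 and 159 against 34, 31 and 30 (-1.59 ± 0.35). WT replicate 3 was highest in both. The others were transcripts with no settled function. Gm15657 had 90, 23 and 53 reads against 15, 18 and 9, A230098N10Rik had 45, 46 and 90 against 23, 18 and 19, and Gm50318 had 41, 20 and 33 against 8, 16 and 8. Gm15657 overlaps Heg1 on the opposite strand and Gm50318 overlaps Prob1 on the same strand, and since use of strand is not given in the sources used here, their reads may include those of the neighbour.

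**Figure D4:**
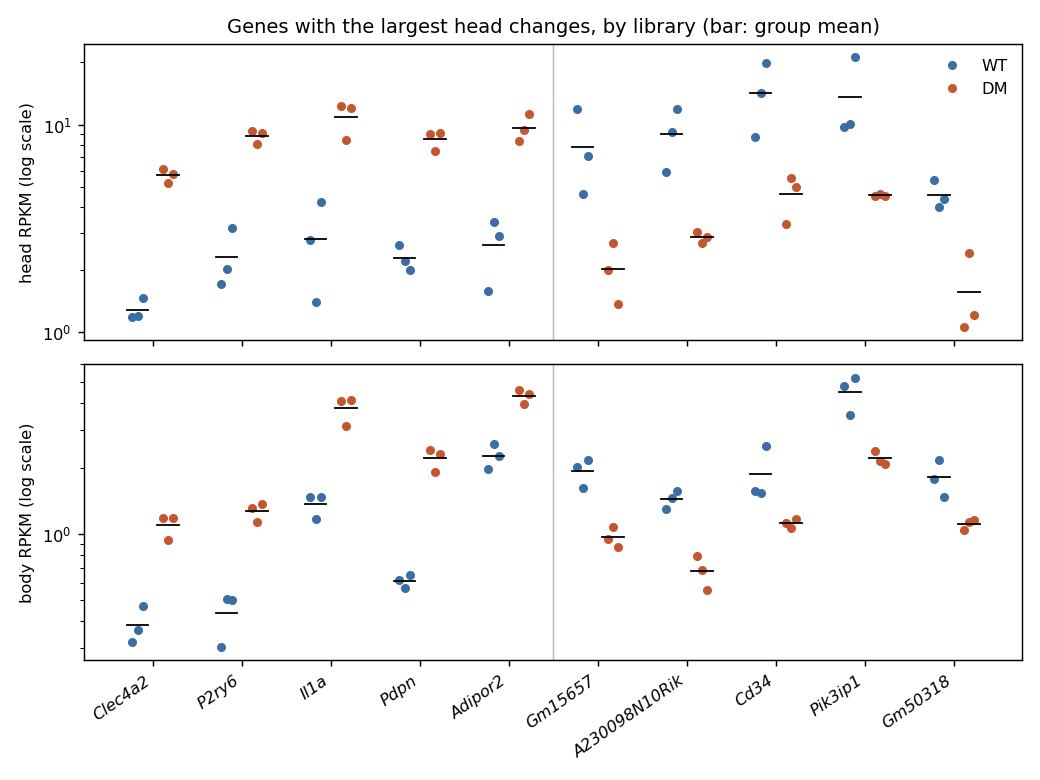
Head RPKM (top) and body RPKM (bottom), both on log axes, in each of the 3 WT (blue) and 3 DM (orange) libraries for the 5 members whose heads rose most and the 5 whose heads fell most, with bars at group means. Genes whose groups overlap in the head were not eligible for naming; Clec4a2 lies at 1.19 to 1.46 in WT against 5.25 to 6.10 in DM, and Cd34 at 8.70 to 19.7 and 3.32 to 5.55.

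With all 6 libraries, head calls were more frequent among members with CG-poor promoters. Of 63 members with a CG ratio under 0.4, 16 heads rose and 9 fell, or 39.7% called, and of 87 with a ratio of 0.6 or more, 3 rose and 4 fell, or 8.05%. Head depth was alike in these member classes, with medians of 510 and 569 reads, but not in the same classes of other eligible genes, at 495 and 1281. Other eligible genes had nearly the same shares by class, 33.8% of 68 under 0.4 (18 rose, 5 fell) and 9.18% of 686 at 0.6 or more (11 rose, 52 fell). The median head log2 fold change was 0.45 in the CG-poor members, 0.54 in the CG-poor other genes, -0.11 in the CG-rich members and -0.25 in the CG-rich others. Median body changes were also higher in CG-poor genes, at 0.60 against 0.35 in members and 0.70 against 0.32 in the others. The higher medians were thus not particular to heads. With all 6 libraries, no head to body ratio was called in either member class. With TMM scaling, 27 heads rose and 12 fell among the CG-poor members, and 11 rose and 13 fell among the CG-rich. Without WT replicate 2, 27 rose and 14 fell among the CG-poor members (65.1% called) and 13 rose and 6 fell among the CG-rich (21.8%), beside 37.1% of all heads tested. Called shares were 50.8% and 24.1% without WT replicate 1, and 25.4% and 2.30% without WT replicate 3. Without DM replicate 2 they were 22.2% and 2.30%, and without DM replicate 3 they were 9.52% and 1.15%. Without DM replicate 1 the contrast was gone, with 0 CG-poor members and 1 CG-rich member called.

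No member passed the test of the head to body ratio, where 0% of 2579 genes tested were higher in DM and 0.0775% lower. At an unadjusted p under 0.05 there were 45 members, 6 higher and 39 lower, beside 395 of the 2579 genes. Those 395 were 46 higher and 349 lower, so the lean to lower ratios was not particular to the members. DESeq2 called 0 members higher and 8 lower, and its share over all genes is not given here. Without WT replicate 2, 3 members were higher and 10 lower, beside 3.14% of all genes called in either direction. The median log2 change of the ratio was -0.18 in members, -0.29 in other eligible genes and -0.39 in the most paused. With separate TMM factors for heads and bodies it was 0.11 in members and 0.05 over all genes tested, so the sign of the members' median turned with the scaling. The median SE of a member's ratio change was 0.29, which limits the changes this test can call. Among members with the smallest p-values, none past the threshold, Bcl2l1 (the survival factor BCL-XL) had, per 100 body reads, 4.50, 5.07 and 3.79 head reads (WT) against 2.01, 1.80 and 1.48 (DM) (log2 change -1.33 ± 0.27; edgeR adjusted p = 0.0962). Nek6, a mitotic kinase, had 3.36, 4.57 and 3.16 against 1.54, 1.68 and 1.46 (-1.23 ± 0.25), and Rara, the retinoic acid receptor, had 1.75, 2.21 and 2.01 against 0.773, 1.02 and 0.803 (-1.21 ± 0.26). In these 3 the body rose while the head values ran lower in DM. Fgd2, a guanine nucleotide exchange factor, ran the other way, from 5.54, 6.38 and 10.1 in WT to 15.5, 17.2 and 21.3 in DM (1.30 ± 0.30, edgeR adjusted p = 0.139), with Tnip1 and Adipor2 at 1.14 ± 0.34 and 0.99 ± 0.32.

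By function, 90 members belonged to 1 or more of 19 gene lists and 210 to none. Every member's body passed the test by the selection described, so the counts below are read by direction and by heads. Body directions in all lists are read against 57.4% higher and 42.6% lower over all genes tested. Head calls are read against 7.63% higher and 9.18% lower, or 23.6% and 13.5% without WT replicate 2. Granule and effector genes of myeloid cells supplied 5 of 10 eligible genes, all with higher bodies and 2 with higher heads, or 3 without WT replicate 2. Ctss, the antigen-processing protease cathepsin S, had 22, 8 and 28 head reads in WT against 75, 47 and 63 in DM (1.64 ± 0.36, edgeR adjusted p = 0.011), and the DM libraries were all higher. Lgals3, galectin-3, had 327, 230 and 419 against 769, 646 and 716 (1.06 ± 0.28, edgeR adjusted p = 0.0207). Ctsb, cathepsin B, rose in its body (1.22 ± 0.16) while its head, with 151, 233 and 282 against 329, 369 and 372 reads, did not pass (0.54 ± 0.34, adjusted p = 0.282).

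Receptor genes ran both ways. Of 7 members among 20 eligible receptor genes, 4 bodies were higher and 3 lower, with 2 heads higher, or 4 higher and 2 lower without WT replicate 2. C5ar1, the complement C5a receptor of phagocytes, had 65, 16 and 51 head reads in WT against 121, 119 and 138 in DM (1.53 ± 0.33, edgeR adjusted p = 0.011). Csf1r, the receptor of macrophage colony-stimulating factor, had 16, 11 and 25 against 34, 48 and 41 (1.19 ± 0.37, adjusted p = 0.0363). Il1rl1, the interleukin-33 receptor of mast cells, ran lower, with a body that fell by 0.91 and head reads of 372, 119 and 652 against 210, 209 and 168 (-0.92 ± 0.37, adjusted p = 0.0942). In head RPKM, its WT replicate 2 lay below every DM library, at 23.9 against 25.5 to 31.3. The other WT libraries lay above them, so the head groups overlapped.

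Leukocyte adhesion and surface genes supplied 9 of 18 eligible genes, with 7 bodies higher and 2 lower, and 5 heads higher and 2 lower. Clec7a, the beta-glucan receptor dectin-1, had 64, 22 and 73 head reads in WT against 154, 128 and 152 in DM (1.44 ± 0.31, edgeR adjusted p = 0.0109). Itgam, the integrin CD11b, had 77, 48 and 88 against 199, 146 and 140 (1.12 ± 0.28, adjusted p = 0.0171), and its transcript overlaps Gm49368 on the same strand. Itgb2, its integrin partner, and Cd52 also rose, by log2 1.04 and 0.94 in the head. The lower pair were Cd34 and Itga2b, the megakaryocyte integrin CD41, whose head fell by 1.00 on the log2 scale.

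Blood transcription factors supplied 5 of 13 eligible genes, with 2 bodies higher, 3 lower and 1 head lower, or 2 heads without WT replicate 2. Gata2 had body RPKM of 117, 91.9 and 97.7 in WT against 59.3, 56.0 and 54.4 in DM and its head fell from 825, 1009 and 1374 reads to 445, 571 and 484 (-1.21 ± 0.31, edgeR adjusted p = 0.0194). Tal1 had body RPKM of 17.8, 19.9 and 25.7 against 12.9, 13.5 and 12.7 (-0.72 ± 0.13, adjusted p = 0.00176), with 48, 23 and 62 head reads against 46, 41 and 39 (adjusted p = 0.846). Runx3 had a lower body (-0.70 ± 0.08), and Rara and Klf13 had higher ones (0.46 and 0.57). Thus the body groups separated in Tal1 and Gata2, while in Tal1 the head groups overlapped. Both heads were read at an upstream start, and values by group for the downstream starts with more head reads are not given here.

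Directions in the innate sensing and lysosome lists, too, are read against the 57.4% of all bodies that were higher. All 4 innate members (of 18 eligible) had higher bodies, and Il1a and Tnfaip2 higher heads. Tnfaip2, a TNF-induced gene, had body RPKM of 8.69, 12.6 and 10.0 in WT against 28.2, 23.4 and 26.3 in DM and 313, 417 and 423 head reads against 948, 837 and 905 (1.06 ± 0.32, edgeR adjusted p = 0.0316). Of 8 lysosome and endosome members among 34 eligible genes, 7 bodies were higher and 1 lower, and 6 of the 7 passed with TMM scaling. Lrp1, an endocytic receptor, had 13, 30 and 47 head reads against 101, 76 and 101 (1.51 ± 0.40, adjusted p = 0.022), and Atp6v0d2, a proton pump subunit, 53, 81 and 105 against 223, 192 and 172 (1.16 ± 0.33, adjusted p = 0.0285). Psap, the precursor of the saposins, rose in the body from 6.67, 10.3 and 10.7 to 22.4, 20.8 and 24.7 RPKM while its head did not pass (0.37 ± 0.34). Sqstm1, an autophagy receptor, was the lysosome-list member that ran lower (-0.49 ± 0.16 in the body).

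Of 10 eligible genes of energy metabolism, 6 were members, with 5 bodies higher and 1 lower. They include Hk1 and Hk3 (hexokinases), Pkm (pyruvate kinase) and G6pdx, Pgd and Taldo1 of the pentose phosphate pathway. Hk3 had 73, 55 and 78 head reads in WT against 137, 134 and 134 in DM (0.89 ± 0.28, edgeR adjusted p = 0.0371), whereas Hk1 was the lower body (-0.30 ± 0.10). With TMM scaling 3 of the 5 higher bodies passed. All 7 cytoskeletal members (of 21 eligible) had higher bodies, 6 of them with TMM scaling, and none a called head, where 1 was called without WT replicate 2. Lcp1 had body RPKM of 3.69, 3.74 and 4.08 against 6.34, 5.85 and 6.09 (0.64 ± 0.09), and Capg 5.77, 6.86 and 8.78 against at least 11.7 in each DM library (0.70 ± 0.14), with no overlap in either.

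Solute carriers supplied 8 of 48 eligible genes, with 4 bodies higher and 4 lower, and 1 head higher and 4 lower. Slc45a3 had 346, 409 and 635 head reads in WT against 150, 196 and 170 in DM (-1.53 ± 0.33, edgeR adjusted p = 0.0109). Slc30a2, a zinc exporter, had 74, 123 and 184 against 53, 63 and 47 (-1.35 ± 0.36, adjusted p = 0.0228), and Slc6a9, a glycine transporter, 119, 78 and 139 against 40, 77 and 43 (-1.12 ± 0.32, adjusted p = 0.0293). Transcripts with Gm or Rik names supplied 15 of 55 eligible, with 4 heads higher and 3 lower. Zinc finger genes supplied 5 of 27 with 1 head lower (Zbtb4, -0.92 ± 0.29), and kinase, phosphatase and GTPase genes 5 of 29 with 1 head higher (Fgr, a myeloid Src-family kinase, 0.98 ± 0.31). Cell cycle genes supplied 1 of 22 (Uhrf1), chromatin genes 1 of 8 (Chd3, head lower at -1.10 ± 0.32), ribosome and translation genes 2 of 7 (Vars and Polr1a), RNA processing genes 1 of 4 (Hnrnpk) and immediate early genes 1 of 4 (Atf3). The ubiquitin list had 0 members of 7 eligible, and the list of P-TEFb and elongation factors 0 of 4. Against these stand 19.2% of all eligible genes, and list shares were not tested.

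**Figure D5:**
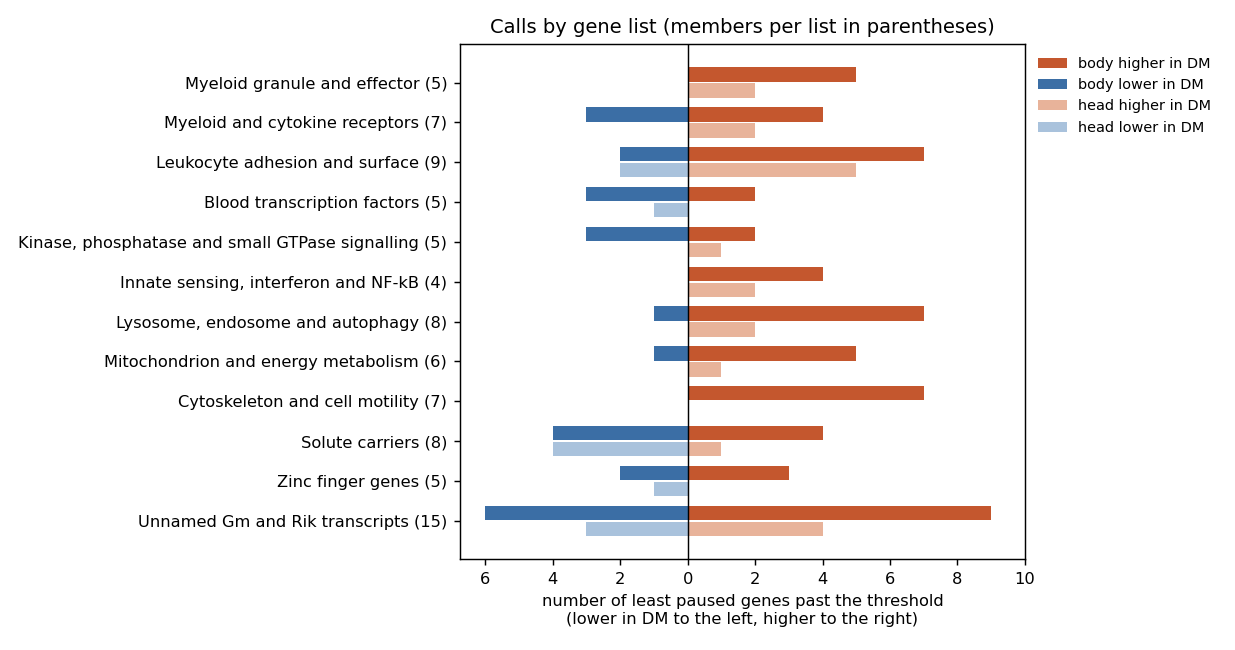
Number of members past the edgeR threshold (horizontal axis, lower in DM to the left and higher to the right) for bodies (dark) and heads (light) in the 12 lists with 3 or more members; members per list stand in parentheses. All 7 cytoskeletal bodies are higher with no head called, and 4 solute carrier heads are lower with 1 higher.

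The 10 members of highest body RPKM include Gata2 and Cpa3 of the mast cell markers. Gata2, at 79.4 body RPKM over all libraries, was followed by Furin (a proprotein convertase, 66.2), Ctsd (cathepsin D, 55.8), Csf2rb2 (a beta chain of the interleukin-3 receptor, 43.2) and Tph1 (tryptophan hydroxylase of serotonin synthesis, 37.3). Srgn, Plaur, Cpa3, Sqstm1 and Lgals3 followed at 26.3, 25.5, 25.2, 21.0 and 20.9. The order differed by group, since Gata2 was highest in WT, at a mean of 102, while in DM Ctsd stood highest at 64.7, above Gata2 at 56.6 and Furin at 54.7. Tph1 had body RPKM of 58.4, 36.3 and 55.0 in WT against 24.9, 24.4 and 25.0 in DM (-1.03 ± 0.14, edgeR adjusted p = 0.000527), and its head fell with it (-1.17 ± 0.32, adjusted p = 0.0238). Cpa3, mast cell carboxypeptidase, had 30.0, 20.8 and 41.9 against 19.4, 20.5 and 18.9 (-0.67 ± 0.19), where WT replicate 2 came within reach of DM replicate 2. Plaur, the urokinase receptor, ran higher, from between 14.6 and 15.2 in WT to between 34.5 and 38.6 in DM (1.24 ± 0.09) and a head that rose by 0.86 ± 0.26. Csf2rb2 has a near-identical neighbour in Csf2rb, so its reads are uncertain.

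Markers of the cell types that such cultures hold are in the table only if their bodies differed in the authors' test. The sums below are therefore made of genes selected for a difference, and they do not show how all listed markers of a type moved. The direction of each marker is not given here for every gene. Summed body RPM (reads per 1000000 of the library total) over the 6 of 8 stem and progenitor markers in the table were 2514 to 3242 in WT against 1529 to 1587 in DM, and over 4 of 8 mast and basophil markers 2369 to 3458 and 1641 to 1737. The 6 of 13 neutrophil and monocyte markers held were at 218 to 268 in WT against 550 to 641 in DM, and 4 of 10 erythroid and megakaryocyte markers were at 197 to 223 in WT against 107 to 125 in DM. None of 6 B cell or 8 stromal and endothelial markers and 1 of 7 T and NK cell markers was in the table, which holds only rows that differed, so this says nothing about their level. Members supply part of these sums, with 2, 3, 3 and 2 of the listed genes in the order given. Gata2 is in both the stem and the mast list, so these sums are not separate. Without it they were 1334 to 1987 and 1188 to 2204 in WT against 825 to 849 and 943 to 1018 in DM. The part of cell composition in the members' changes was not tested.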

How the data were processed

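PRO-seq reads of 6 libraries were processed by the authors. Per the submitters' processing notes, Bowtie 1.1.2, cutadapt, Trimmomatic and bedtools 2.28 and the builds mm10 and dm3 were used, with roles not given. If dm3 was a spike-in, scaling to it was not used here, and directions are relative to the size factors below; annotation, strand and treatment of multiply mapped reads are not given in the sources used here. Raw head and body counts per transcript and library totals (15112853 to 22981603 reads) were deposited by the authors, with the log2 fold change, p-value and mean size-factor-scaled signal of their body comparison. The table holds 3022 rows, all with an adjusted p-value up to 0.0498. RPKM was recomputed from counts, window lengths and totals.

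The members and lists were chosen with earlier results of these data known. The authors' size factors were recovered from the deposited mean signal and used for heads and bodies, because TMM computed on rows selected for change can misplace the common scale. Counts were tested with edgeR 4.0.16 (quasi-likelihood, filterByExpr with minimum 10 and total 15, group only; R 4.3.3, limma 3.58.1) on 1 row per gene, adjusted by Benjamini-Hochberg over all genes at 0.05; all 300 members passed the filter. The ratio was tested as the interaction of region and group with library as a block. The procedure was tested on simulated counts. Alternatives were TMM, library totals, DESeq2 1.42.0, other filters, a replicate block and each library left out. Members were named by rule: the 10 lowest ratios, the 3 at each side of the cut-off, the 5 largest called body and head changes per direction without overlap (means of at least 50 and 20 reads), the 3 smallest ratio p-values per direction, up to 3 per list by head p, and the 10 highest body RPKM. Other list members (Itgb2, Cd52, Itga2b, Klf13, Mia2, Pkm, Pgd and Taldo1) were named after their values were seen. Promoter features used RefSeq GRCm38.p6, which matched 239 members.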

Additional observations from a re-analysis of the deposited data

How the results depend on the processing

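Lower bodies numbered 122, and 93 at an adjusted p under 0.01 and 109 to 122 with a library left out. Higher bodies numbered 178, and 113 with DESeq2 and 159 to 178 with a library left out. Of the 300 called bodies, 4 changed sign with DESeq2, 0 with TMM and 0 with any library left out. DESeq2 lowered the median of all genes by 0.31 on the log2 scale, and the members' median body change was 0.12 with it and 0.23 with TMM, against 0.42. Higher heads numbered 43, and 77 with TMM, 72 with DESeq2, 22 with a mean of at least 50 counts, 8 at an adjusted p under 0.01 and 2 to 81 with a library left out. Lower heads numbered 28, and 50, 44, 17, 0 and 0 to 60 under the same alternatives. Higher ratios numbered 0, and 6 with separate TMM factors for head and body and 0 to 3 with a library left out. Lower ratios numbered 0, and 8 with DESeq2, 5 with separate TMM factors and 0 to 10 with a library left out. The replicate number as a block gave 178 and 122 bodies, 51 and 42 heads, and 1 and 5 ratios. Deviations of same-numbered libraries correlated at -0.21 to 0.44 in bodies and -0.03 to 0.06 in heads. Differently numbered libraries covered a like range, at -0.49 to 0.47 in bodies and -0.06 to 0.04 in heads. With 3 libraries per group, these correlations cannot decide whether the numbers carry a pairing. The head of Vars, at -0.20, ran from -0.360 to 0.001 with a library left out, the last without WT replicate 2. Of 656 refits of named heads, 534 stayed on their side of the threshold, 90 lost and 31 gained a call. The cause of these shifts was not tested. Head depth, a median of 475 reads over 6 libraries, limits what single heads can show.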
